A study of Mus musculus with 9 samples.

Results

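RAW264.7 cells, a mouse macrophage-like line, were compared between an untreated state and a polarized state reached in the presence of iodide. The compared libraries were 6 of the 9 in the series. The 3 libraries named Mock came from wild-type cells without stimulus. The 3 libraries named I came from wild-type cells given lipopolysaccharide (LPS) at 100 ng/ml, mouse interferon gamma at 50 ng/ml and potassium iodide at 20 mM during polarization. A further 3 libraries, named M1, came from cells given the same LPS and interferon gamma without the salt, and their levels are shown beside the compared groups. The comparison I vs Mock therefore spans the whole treatment, stimulus and salt together, and no library had the salt alone. No group received another potassium salt or another osmolyte, so iodide, potassium and added osmolarity cannot be told apart. All libraries come from the same cell line, which is transformed and divides in culture. The time of harvest is not in the labels. Nor do they state that replicate libraries were separate cultures, and the p-values cover the spread among the libraries alone, which could be technical.

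LPS is a component of the outer membrane of Gram-negative bacteria that signals through TLR4 to NF-kB, MAP kinases and type I interferon. Interferon gamma signals through JAK kinases and STAT factors, and the pair of stimuli is the standard way to push macrophages to the state called M1 or classically activated. That state is known for nitric oxide, inflammatory cytokines, a shift to glycolysis and an arrest of division. Cells exposed to extra salt are known to raise transporters and enzymes for organic osmolytes, many of them under the transcription factor NFAT5, also called TonEBP.

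Expression was measured by poly(A) RNA sequencing and deposited as FPKM, fragments scaled to gene length and library total. The same 12474 gene rows were present in every library. No row held a 0, so genes without fragments in some library are outside this comparison, and those switched fully off or on can be missing from the counts that follow. The library totals recovered from the values were 17431070 to 25470730 fragments in Mock and 18370400 to 21202240 in I. Replicates correlated closely across genes (Pearson r of log2 values, 0.9973 to 0.9977). All 12 macrophage markers checked were present in the files. Of the other cell types, only 1 to 4 of 9 to 13 markers per list were in the files, and their levels are given beside the macrophage genes below.

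The control regions of 7 genes named below are printed here, whether they moved much or little. Each is given as the 250 bases before the RefSeq start on the GRCm38.p6 assembly, 5′ to 3′ in the direction of transcription. They were chosen to show the short elements linked in textbooks to each response. Capitals mark matches of the element named, and unmarked letters can still hold matches of other elements. Cdc20 and Ccnb2 fell most, and in them the capitals mark TTTGAA, known from mitotic genes, and CCAAT, the box bound by NF-Y. In Ccnb2 the marked TTTGAA lies 167 bases before the start. A further TTTGAA begins 4 bases past the start, outside the printed stretch, and use of either was not tested.
Cdc20 (chr4:118437344-118437593, minus strand): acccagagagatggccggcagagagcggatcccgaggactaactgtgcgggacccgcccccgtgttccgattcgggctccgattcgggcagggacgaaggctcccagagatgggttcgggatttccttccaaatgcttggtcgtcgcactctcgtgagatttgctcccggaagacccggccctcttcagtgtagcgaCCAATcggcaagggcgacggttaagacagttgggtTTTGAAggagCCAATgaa
Ccnb2 (chr9:70421555-70421804, minus strand): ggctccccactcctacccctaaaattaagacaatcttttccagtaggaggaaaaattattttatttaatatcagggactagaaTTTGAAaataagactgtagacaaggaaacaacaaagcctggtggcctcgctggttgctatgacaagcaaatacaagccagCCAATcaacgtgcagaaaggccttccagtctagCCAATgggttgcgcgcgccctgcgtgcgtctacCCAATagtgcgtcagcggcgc
Irgm1, a GTPase of the interferon response, has 2 overlapping matches of the interferon-stimulated response element core (ISRE core), spelled GAAA, any 2 letters, GAAA, 30 and 24 bases before the start.
Irgm1 (chr11:48871421-48871670, minus strand): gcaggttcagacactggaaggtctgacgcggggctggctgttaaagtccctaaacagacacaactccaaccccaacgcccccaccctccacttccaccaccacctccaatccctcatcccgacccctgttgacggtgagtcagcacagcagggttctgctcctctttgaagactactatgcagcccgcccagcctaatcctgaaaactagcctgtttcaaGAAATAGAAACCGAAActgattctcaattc
Cxcl10 and Il6 show matches of the NF-kB (kB) consensus, and in Cxcl10 the capitals farthest from the start mark the ISRE core.
Cxcl10 (chr5:92348890-92349139, minus strand): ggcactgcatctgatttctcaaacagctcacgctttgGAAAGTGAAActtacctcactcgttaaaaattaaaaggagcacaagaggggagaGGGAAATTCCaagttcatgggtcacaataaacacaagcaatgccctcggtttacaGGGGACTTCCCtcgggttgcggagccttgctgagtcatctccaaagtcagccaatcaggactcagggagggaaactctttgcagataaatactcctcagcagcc
Il6 (chr5:30012864-30013113, plus strand): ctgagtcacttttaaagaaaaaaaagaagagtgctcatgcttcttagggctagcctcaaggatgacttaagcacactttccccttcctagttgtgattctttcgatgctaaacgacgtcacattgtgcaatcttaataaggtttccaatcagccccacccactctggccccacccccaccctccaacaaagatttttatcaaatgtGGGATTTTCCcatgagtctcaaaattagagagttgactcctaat
In Socs3 the capitals mark TTCNNNGAA, the STAT-type element, 154 bases before the start.
Socs3 (chr11:117969367-117969616, minus strand): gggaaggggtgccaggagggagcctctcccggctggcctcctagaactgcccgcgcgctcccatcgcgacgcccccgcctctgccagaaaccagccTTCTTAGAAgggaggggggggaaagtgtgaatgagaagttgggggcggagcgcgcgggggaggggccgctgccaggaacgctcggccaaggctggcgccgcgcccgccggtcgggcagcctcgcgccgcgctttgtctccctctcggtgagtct
In Slc6a12, the betaine transporter, they mark a match of the tonicity element (TonE) 75 bases before the first of 5 listed starts.
Slc6a12 (chr6:121342324-121342573, plus strand): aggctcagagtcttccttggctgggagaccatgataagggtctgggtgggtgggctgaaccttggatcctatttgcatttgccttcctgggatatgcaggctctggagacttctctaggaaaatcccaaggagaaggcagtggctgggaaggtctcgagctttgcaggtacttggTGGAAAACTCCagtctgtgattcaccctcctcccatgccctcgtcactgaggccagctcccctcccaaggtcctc

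Both strands were searched in windows from 250 bases before to 50 bases after each listed start. Of 11146 tested genes with a unique name, 8651 had 10991 windows. TTTGAA was in 66.1% of the 56 windows of the mitosis and spindle list and in 12.4% of all windows. CCAAT was in 76.8% and 38% of the same windows. The ISRE core was in 43.4% of the 53 windows of the interferon-stimulated antiviral list and in 3.34% of all windows. The windows of that list had a median GC content of 49.7%, against 60.7% over all windows. The kB consensus was in 18.1% of the 199 windows of genes called and at least 4-fold higher in I, in 11.3% of the 326 windows of genes called and at least 4-fold lower, and in 10.3% of all windows. The TonE consensus, which can overlap a kB match, was in 6.53%, 4.6% and 3.47% of those windows. TTCNNNGAA was in 11.6%, 7.67% and 6.82% of them, and the ISRE core in 7.54%, 4.6% and 3.34%. The windows of the genes at least 4-fold higher held a median of 14 CpG dinucleotides against 21 over all windows. These shares describe letters in a window and were not tested.

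Polarization with iodide moved most measured genes. Most cytokine, chemokine and glycolysis genes rose, and most genes of mitosis, DNA replication and ribosome assembly fell. On the log2(FPKM + 1) scale, the largest rise was that of Csf3, the granulocyte colony-stimulating factor. It went from 0.67, 0.28 and 0.67 FPKM in the Mock libraries to 1489, 1408 and 1497 in the I libraries. The largest fall on that scale was in Ccnb2, cyclin B2, from 42.9, 39.2 and 41.2 FPKM to 0.49, 0.32 and 0.68. Plain ratios of FPKM can rank genes otherwise. Neither gene's groups came near each other. Csf3 lies at chr11:98701263-98703629 and Ccnb2 at chr9:70407692-70421547 (GENCODE, GRCm38).

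With limma, 9680 of 11156 tested genes (86.8%) passed a Benjamini-Hochberg threshold of 0.05 and are termed called. They split into 3146 higher in I (28.2%) and 6534 lower (58.6%). The split depended on scaling. With median-of-ratios scaling, which sets the median gene near no change, 4762 genes were higher and 4785 lower, so that 49.9% of the calls were higher in place of 32.5%. As deposited, the median tested gene stood at -0.30 on the log2 scale, and a list's median is best read against that value. Among calls at least 2-fold apart on the log2(FPKM + 1) scale, 779 were higher (6.98%) and 2008 lower (18%), against 1299 and 1221 with median-of-ratios scaling. At least 4-fold apart were 203 higher (1.82%) and 353 lower (3.16%), at least 8-fold 71 higher (0.636%) and 58 lower (0.52%), and at least 16-fold 27 higher (0.242%) and 11 lower (0.0986%). As deposited and on this scale, the order of the directions turned between 4-fold and 8-fold. Counts at 4-fold and above were made with this setting alone. The added 1 also limits how far a gene of low level can fall. Whether the turn holds with other scalings or pseudocounts was not tested. The share of genes called higher differed with level. It was 23.1% among 1011 genes with a mean under 1 FPKM, 19.7% among 1852 between 1 and 3, and 54.6% among 399 of at least 100. The 10 most abundant genes of I held 17.0% to 17.6% of all FPKM in the I libraries and 8.68% to 8.91% in the Mock libraries, and the part of this in the split was not tested. Groups without overlap were common among the tested genes. Every I library lay above every Mock library in 3174 genes (28.5%) and below in 6542 (58.6%). Lack of overlap in a named gene is to be read beside those shares. In bulk RNA, a lower level of a transcript per cell and a smaller share of cells with it cannot be told apart.

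**Figure D1:**
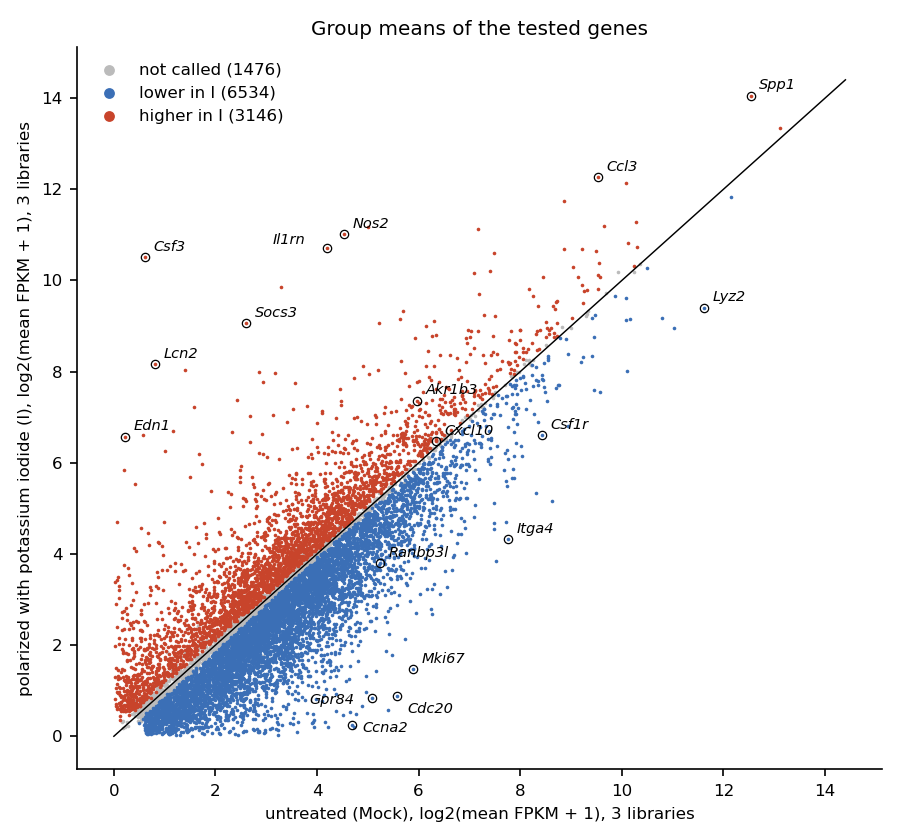
Group means of the 11156 tested genes on a log2(FPKM + 1) scale, untreated on the x axis and polarized with iodide on the y axis, 3 libraries each. Red points were called higher in I (3146), blue points lower (6534) and grey points not called (1476); Csf3 sits far above the diagonal and Ccna2 and Mki67 far below it.

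Fixed gene lists were read by how many of their tested members were called in each direction, beside the 28.2% higher and 58.6% lower over all genes. A list with calls in both directions can lie near those shares, as the Toll-like receptor and NF-kB list did (37.8% and 53.3%). The highest medians were those of HIF1 targets outside glycolysis (1.58), cytokines (1.57) and chemokines (1.49), and the lowest those of mitosis (-2.51), ribosome biogenesis (-1.79) and DNA replication (-1.53). Of the lists, 21 held more members higher than lower and 29 more lower than higher, against 31 and 17 with median-of-ratios scaling.

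**Figure D2:**
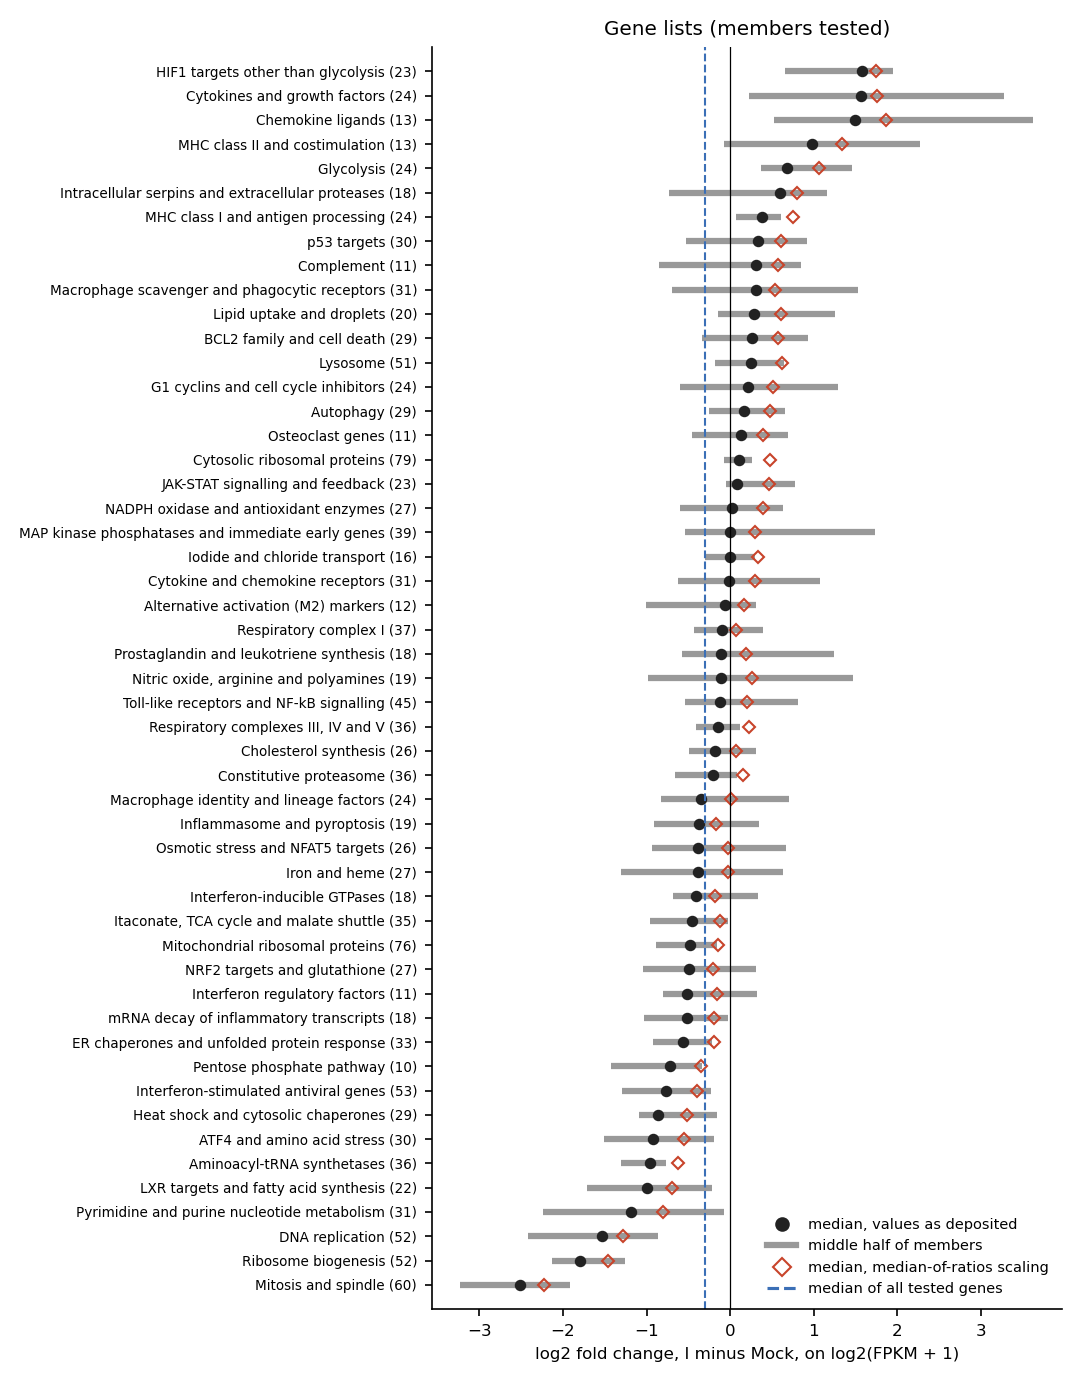
Each row is a gene list with its number of tested members; the x axis is the log2 fold change, I minus Mock. Black dots are medians as deposited, grey bars span the middle of the members from the lower to the upper quartile, red diamonds are medians with median-of-ratios scaling, and the dashed line is the median of all tested genes (-0.30). Mitosis (-2.51) lies at the lower end on both scalings, and HIF1 targets (1.58), cytokines (1.57) and chemokines (1.49) lie together at the upper end.

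Secreted cytokines and growth factors rose as a group, with 19 of 24 tested members higher and 4 lower. Beside Csf3, Il1rn rose, the secreted antagonist of the interleukin-1 receptor, from 17.1, 17.7 and 17.0 FPKM in Mock to 1678, 1691 and 1658 in I. The difference was 6.52 ± 0.027 (SE) on the log2 scale, with a limma adjusted p of 4.34e-17, and the mean in M1 was 1039. Tnf, the central cytokine of acute inflammation, had 161, 172 and 170 FPKM in Mock and 1217, 1140 and 1198 in I, a ratio of means of 7.07. Edn1, the vasoconstrictor endothelin-1, stood at 0.17, 0.08 and 0.26 FPKM in Mock and at 96.3, 88.4 and 97.6 in I. For each of these genes every I library lay above every Mock library.

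The interleukins for which LPS is best known rose from almost nothing to modest levels. Il6 had 0.19, 0.35 and 0.14 FPKM in Mock and 10.9, 10.6 and 10.1 in I, and Il1b had 0.21, 0.18 and 0.26 against 12.3, 12.1 and 11.5. The log2 differences were 3.23 ± 0.061 and 3.42 ± 0.041 (SE), with limma adjusted p of 1.89e-12 and 7.52e-14. Both I groups lay far above Mock and below the M1 means of 32.3 for Il6 and 54.6 for Il1b. The direct comparison of I with M1, which uses the same I libraries, gave limma adjusted p of 8.86e-09 for Il6 and 5.05e-11 for Il1b. The antagonist Il1rn thus stood at 1676 FPKM in I beside 12 for the ligand gene Il1b, both per length.

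Chemokines rose with 2 exceptions: 11 of 13 tested ligands were higher in I and 2 lower. Ccl3, which attracts monocytes and other leukocytes, was the most abundant, with 703, 755 and 770 FPKM in Mock and 5080, 4696 and 4998 in I. Ccl2, which recruits monocytes through CCR2, rose from 4.21, 4.08 and 3.83 to 102, 99.7 and 101 FPKM, and Cxcl11, a ligand of CXCR3, from 2.10, 2.54 and 1.93 to 74.6, 70.7 and 71.8. No library of these genes overlapped between the groups. Ccl2 lay below its M1 mean of 404 and Cxcl11 above its M1 mean of 19.7. Cxcl10, the interferon-inducible ligand of the same receptor as Cxcl11, hardly moved from the untreated level. It had 79.2, 78.3 and 84.1 FPKM in Mock and 87.8, 87.8 and 88.5 in I, without overlap, a difference of 0.13 on the log2 scale with a limma adjusted p of 0.00203. With quantile normalization this difference was 0.04 and not called. The M1 mean was 14.2, below both groups. Cxcl10 lies at chr5:92346638-92348889, and its printed upstream region holds 2 stretches matching the kB consensus.

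Among cytokine and chemokine receptors the calls were divided, 14 of 31 higher and 13 lower, against 19 and 11 with median-of-ratios scaling. Tnfrsf1b, the inducible receptor for TNF, rose from 10.8 ± 0.40 (SD, n = 3) to 215 ± 4.85 FPKM, and Il4ra, the receptor chain for interleukins 4 and 13, from 0.83 ± 0.11 to 18.2 ± 0.25. Cx3cr1, the fractalkine receptor of resident macrophages, fell from 52.0 ± 0.49 to 3.37 ± 0.32.

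Feedback inhibitors were among the signalling genes that rose most. Socs3, which blocks receptor-bound JAK kinases, went from 5.13, 4.72 and 5.40 FPKM in Mock to 538, 525 and 542 in I, with a log2 difference of 6.46 ± 0.039 (SE) and a limma adjusted p of 5.7e-16. Nfkbia, the inhibitor that holds NF-kB in the cytoplasm, went from 75.3 ± 1.96 (SD, n = 3) to 438 ± 11 FPKM, and Nfkbiz, a nuclear cofactor of NF-kB, from 14.9 ± 0.51 to 116 ± 2.14. Over the Toll-like receptor and NF-kB list, 17 of 45 members were higher and 24 lower as deposited, but 26 higher and 16 lower with median-of-ratios scaling. Of 23 JAK-STAT genes, 13 were higher and 5 lower, against 19 and 1 with that scaling, with Cish, another SOCS family member, at 0.15 ± 0.05 FPKM in Mock and 5.74 ± 0.14 in I.

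Immediate early genes and MAP kinase phosphatases were divided, 19 of 39 higher and 18 lower and 21 and 13 with median-of-ratios scaling, and those that rose included some of the most strongly moved genes. Ier3, a stress-induced survival gene, had 141, 146 and 141 FPKM in Mock and 2255, 2252 and 2235 in I. Dusp2, a nuclear phosphatase of ERK and p38, had 12, 13.2 and 13.6 in Mock and 156, 148 and 151 in I. Both also lay above their M1 means of 615 and 17.3 FPKM, with limma adjusted p of 7.83e-12 for I vs M1 in each case. Zfp36, tristetraprolin, which marks AU-rich inflammatory transcripts for decay, rose from 35.7 ± 0.57 (SD, n = 3) to 263 ± 1.45 FPKM, and the ribonuclease gene Zc3h12a from 7.32 ± 0.20 to 45.7 ± 0.34. Over the mRNA decay list, these genes included, 4 of 18 were higher and 13 lower, against 5 and 9 with median-of-ratios scaling.

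Antiviral genes were lower in the polarized cells with iodide than in untreated cells. Of 53 tested interferon-stimulated antiviral genes 7 were higher and 44 lower, 22 of them at least 2-fold, against 15 and 35 with median-of-ratios scaling. Ifi44l, which is induced by type I interferon, had 311, 316 and 316 FPKM in Mock and 39.7, 40.2 and 38.2 in I, a fall of 2.97 ± 0.032 (SE) on the log2 scale with a limma adjusted p of 3.79e-14. Samd9l, a restriction factor for poxviruses, had 105, 103 and 101 in Mock and 15.3, 14.2 and 14.8 in I. The levels were low in every I library and did not overlap Mock. Their M1 means were 31.1 and 9.12 FPKM, so M1 was also below Mock. Oasl2 and Ifi44 fell from 79.7 to 26.8 and from 215 to 66.7 FPKM. The untreated cells carried these transcripts at high levels. Ifnb1, the gene of interferon beta, stood at 5.82 FPKM in Mock and 0.30 in I (named after its values were seen). Whether its level is linked to those of the antiviral genes was not tested.

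Interferon-inducible GTPases and interferon regulatory factors went both ways, as deposited at shares near those of all tested genes. The GTPases held 33.3% higher and 61.1% lower and the factors 36.4% and 54.5%, beside 28.2% and 58.6% over all genes. Gbp2, a guanylate-binding protein that attacks vacuoles of pathogens, rose from 4.74, 4.81 and 4.33 FPKM to 59.6, 61.6 and 59.5, and Gbp5 from 3.15 to 16.3. Irgm1 and Irgm2, regulators of the immunity-related GTPases, fell from 65.7 to 35.6 and from 44.0 to 20.1 FPKM. The list held 6 higher and 11 lower of 18, and 7 and 6 with median-of-ratios scaling. Close relatives in this family can share reads, so the split between them is uncertain. Irf8 and Irf1, the interferon gamma-induced factors, rose from 31.4 to 244 and from 14.1 to 43.7 FPKM, and Irf5 and Irf2 fell from 69.9 to 37.1 and from 10.1 to 3.88. Of 11 regulatory factors 4 were higher and 6 lower. Inflammasome and pyroptosis genes held 6 higher (31.6%) and 12 lower (63.2%) of 19, also near the shares of all genes. With median-of-ratios scaling they held 8 and 10. Among them Nlrp3, the sensor, fell from 51.8 ± 1.87 (SD, n = 3) to 24.6 ± 1.31 FPKM, and Gsdmd, the pore-forming gasdermin D, rose from 54.7 ± 0.64 to 91.7 ± 2.9.

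Most tested genes of antigen presentation and co-stimulation were higher in I, those of class I mostly by little. Of 24 MHC class I and processing genes 17 were higher and 5 lower, with a median of 0.38 on the log2 scale. Only 1 was at least 2-fold higher, and 3 were at least 2-fold lower. Among those higher was Tap1, a subunit of the peptide transporter, from 39.5 ± 0.22 (SD, n = 3) to 80.8 ± 0.23 FPKM. The class I-like gene H2-T24 went against them, from 177 ± 2.89 to 24.5 ± 1.51, although reads of H2 genes may be divided among relatives. Of 13 class II and co-stimulation genes 9 were higher, 6 of them at least 2-fold, and 4 lower. Cd274, the checkpoint ligand PD-L1, rose from 4.62 ± 0.15 to 46.7 ± 0.19 FPKM, Tnfrsf9 from 1.01 ± 0.19 to 76.0 ± 1.91 and Cd83 from 9.95 ± 0.76 to 51.8 ± 1.94.

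Enzymes that make nitric oxide, itaconate and prostaglandins, the small effector molecules of activated macrophages, were among the most abundant products of the response. Nos2, inducible nitric oxide synthase at chr11:78920787-78960254, had 22.6, 22.1 and 21.8 FPKM in Mock and 2047, 2086 and 2076 in I. The log2 difference was 6.48 ± 0.023 (SE), with a limma adjusted p of 1.7e-17. Ptgs2, cyclooxygenase 2, had 30.1, 31.6 and 31.5 in Mock and 2279, 2265 and 2330 in I. Acod1, which makes itaconate from a Krebs cycle intermediate, had 178, 180 and 177 in Mock and 1541, 1574 and 1521 in I. Each gene was high in all I libraries and far from overlap with Mock. The M1 means were 1447 for Nos2, 1945 for Ptgs2 and 1612 for Acod1. In the polyamine pathway, Odc1, ornithine decarboxylase, rose from 467 to 3424 FPKM and Sat1, which acetylates polyamines for export, from 80.1 to 445, while the spermidine synthase gene Srm fell from 76.2 to 5.40. The nitric oxide, arginine and polyamine list held 9 higher and 10 lower of 19, and 11 and 6 with median-of-ratios scaling. The prostaglandin and leukotriene list held 8 higher and 9 lower of 18, and 9 and 6 with that scaling. Arg1, the arginase of alternatively activated macrophages, lay under the level filter, at 0.13 FPKM in Mock and 0.28 in I.

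**Figure D3:**
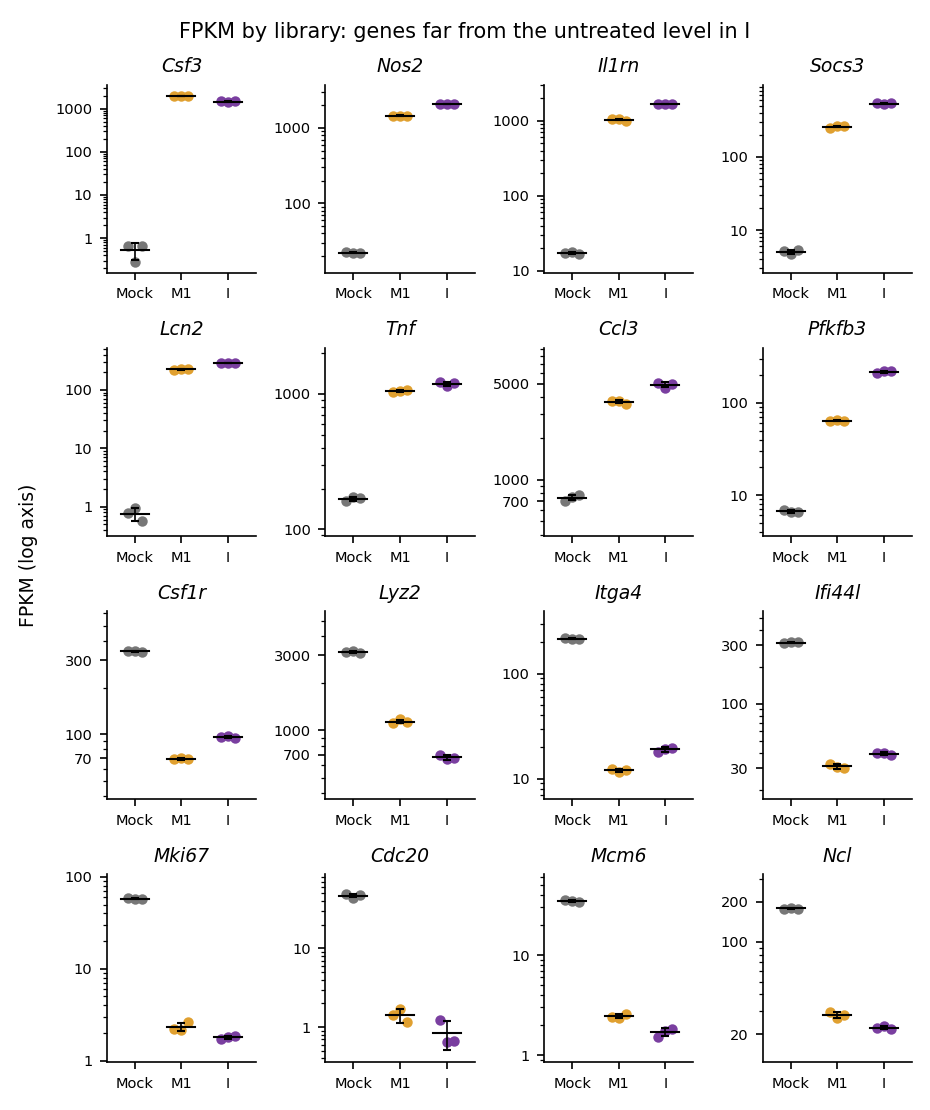
FPKM of 16 genes in every library on log axes, for Mock, M1 and I; points are libraries, horizontal lines means and error bars SDs of 3 libraries. Csf3 to Pfkfb3 lie far above Mock in all I libraries, and Csf1r to Ncl far below, for example Nos2 at 2047 to 2086 FPKM against 21.8 to 22.6, and Mki67 at 1.72 to 1.83 against 57.4 to 59.5.

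Glucose uptake and glycolysis rose, with 19 of 24 tested genes higher and 2 lower. The largest rise in the list was that of Pfkfb3, which makes the activator of phosphofructokinase. It had 6.89, 6.47 and 6.52 FPKM in Mock and 210, 221 and 221 in I, a log2 difference of 4.84 ± 0.031 (SE) with a limma adjusted p of 8.02e-16, and its M1 mean was 64.2. Slc2a1, the glucose transporter GLUT1, had 67.3, 70.4 and 70.1 in Mock and 524, 500 and 514 in I. Both genes were high in each I library, with no overlap. Hk3, a hexokinase of myeloid cells, rose from 77.7 ± 1.28 (SD, n = 3) to 278 ± 3.37 FPKM. Of 23 other HIF1 targets 21 were higher and 2 lower, including the angiogenic factor Vegfa, from 19.8 ± 0.88 to 125 ± 5.75 FPKM, and Ndrg1, from 21.1 ± 0.87 to 154 ± 3.28. Hmox1, heme oxygenase 1, rose from 129 ± 4.44 to 476 ± 2.53, below its M1 mean of 746.

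More Krebs cycle genes were lower than higher, at shares near those of all tested genes. Of 35 genes of the Krebs cycle, itaconate and malate shuttle 7 were higher and 24 lower, against 14 and 19 with median-of-ratios scaling, and their median of -0.45 stood beside -0.30 for all tested genes. Idh2, mitochondrial isocitrate dehydrogenase, fell from 47.6, 49.6 and 47.2 FPKM to 6.98, 7.78 and 8.09, and Sdha, the flavoprotein of succinate dehydrogenase, from 68.0 to 31.1. Each Idh2 value in I lay far under every Mock value. The respiratory chain moved little and its direction turned with scaling. Complex I had 11 higher and 19 lower of 37 as deposited and 18 and 9 with median-of-ratios scaling, and complexes III, IV and V had 7 and 20 of 36 against 22 and 8. As deposited, all but 1 of 10 pentose phosphate genes fell, against 7 lower and 1 higher with median-of-ratios scaling. Prps1, which makes the sugar phosphate for nucleotides, fell from 34.6 to 6.08 FPKM and Pgd, an NADPH-producing step, from 89.0 to 43.2. The exception as deposited was G6pdx, at 111 FPKM in Mock and 117 in I (named after its values were seen).

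Transcripts of the mitochondrial genome fell in part. Of its 13 protein genes 11 were in the files, 9 of them lower, COX1 higher and COX3 not called. ND1, a core subunit of complex I, had 2087, 2103 and 2100 FPKM in Mock and 508, 495 and 480 in I. CYTB of complex III had 1751, 1774 and 1794 in Mock and 609, 596 and 535 in I. Both were low in all I libraries, and the M1 means were lower still, 268 and 359. COX1 of complex IV had a mean of 8875 FPKM in Mock and 10341 in I, a difference of 0.22 on the log2 scale with a limma adjusted p of 0.00405. Nuclear copies of mitochondrial genes can share reads with them, so levels that differ among these genes are uncertain, and poly(A) selection can change how they are captured.

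Most genes of fatty acid synthesis and LXR targets fell, and more genes of lipid uptake and droplets rose than fell. Of 22 genes of fatty acid synthesis and LXR targets 2 were higher and 17 lower, against 7 and 15 with median-of-ratios scaling. Lpl, lipoprotein lipase, had 74.7, 75.4 and 74.6 FPKM in Mock and 5.87, 6.09 and 5.83 in I, against an M1 mean of 39.1. Fasn, fatty acid synthase, had 85.8, 84.7 and 83.2 in Mock and 7.70, 7.69 and 7.74 in I, near its M1 mean of 6.64. Neither gene overlapped between I and Mock. Of 20 genes of lipid uptake and droplets 12 were higher and 5 lower, with Hilpda, a droplet protein that inhibits lipolysis, from 6.26 ± 1.22 (SD, n = 3) to 252 ± 3.90 FPKM. Cholesterol synthesis held 8 higher and 14 lower of 26, and 11 and 8 with median-of-ratios scaling.

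Division genes of the mitosis list fell without exception as deposited. All 60 tested mitosis and spindle genes were lower in I, 56 of them at least 2-fold, and 59 were lower with median-of-ratios scaling. Cdc20, the activator of the anaphase-promoting complex, had 48.6, 44.3 and 47.6 FPKM in Mock and 1.24, 0.64 and 0.67 in I. Mki67, the proliferation marker Ki-67, had 59.5, 57.7 and 57.4 in Mock and 1.72, 1.82 and 1.83 in I, a fall of 4.41 ± 0.052 (SE) on the log2 scale with a limma adjusted p of 6.79e-14. Both genes were at a few percent of the untreated level in every I library. Their M1 means were 1.43 and 2.32 FPKM. Among the other falls of the same size were Ccna2, cyclin A2, Plk1, a kinase of mitotic entry, Ube2c, a ubiquitin enzyme of mitotic exit, Cenpe, a kinetochore motor, and Stmn1, a microtubule destabilizer. Those 5 genes had mean levels of 21.7 to 28.4 FPKM in Mock and 0.18 to 0.58 in I. Gpr84, a receptor for medium-chain fatty acids and no division gene, fell as far, from 34.8, 33.8 and 30.2 FPKM to 0.55, 0.82 and 1.02.

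DNA replication followed, with 49 of 52 genes lower, 37 of them at least 2-fold, and 1 higher. Rrm2, the regulated subunit of ribonucleotide reductase, had 30.2, 29.8 and 30.6 FPKM in Mock and 1.00, 0.98 and 0.86 in I. Mcm6, a subunit of the replicative helicase, had 35.6, 34.4 and 33.6 in Mock and 1.53, 1.75 and 1.82 in I. Neither overlapped, and both I groups lay below the M1 means of 2.71 and 2.45. The member that was higher was Cdt1, the licensing factor, at 20.4 FPKM in Mock and 24.8 in I (named after its values were seen). Nucleotide synthesis fell with it, 23 of 31 lower and 6 higher, with Cad, the entry to pyrimidine synthesis, from 26.8 to 3.00 FPKM and Impdh2, the entry to guanine nucleotides, from 46.5 to 6.35. Upp1, uridine phosphorylase, which breaks uridine down, went the other way, from 1.48, 1.76 and 1.64 to 267, 262 and 254 FPKM.

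Entry to the cell cycle was mixed. Of 24 G1 cyclins and inhibitors 12 were higher and 11 lower. Ccnd1, cyclin D1, had 232, 231 and 237 FPKM in Mock and 48.0, 49.5 and 51.4 in I, below its M1 mean of 123. Cdkn1a, the inhibitor p21, rose from 128 ± 4.29 (SD, n = 3) to 434 ± 6.39, Gadd45b from 8.06 ± 0.53 to 249 ± 2.19 and Mxd1, a partner of MAX that opposes MYC, from 1.84 ± 0.08 to 50.5 ± 0.90. Of 30 p53 targets 19 were higher and 10 lower, with Mdm2, the ubiquitin ligase for p53, from 34.4 to 132 FPKM. In the cell death list 16 of 29 were higher and 11 lower, and the anti-apoptotic genes Mcl1 and Bcl2l1 rose from 180 to 594 and from 39.1 to 103 FPKM.

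The machinery that builds ribosomes fell almost throughout. Of 52 ribosome biogenesis genes 51 were lower, 41 of them at least 2-fold, and Polr3g was higher (named after its values were seen). Ncl, nucleolin, had 177, 180 and 178 FPKM in Mock and 22.3, 23 and 22 in I. Mybbp1a, a nucleolar MYB-binding protein, had 93.3, 93.3 and 94.6 in Mock and 8.35, 8.75 and 9.08 in I. The ratios of means, Mock over I, were 7.96 and 10.7, with no overlap. Cytosolic ribosomal protein genes had no direction that held across scalings: 37 of 79 were higher, 19 lower and 23 not called, against 72 higher and 4 lower with median-of-ratios scaling and 16 higher and 41 lower with quantile normalization. No cytosolic ribosomal protein gene moved 2-fold, and many have processed pseudogenes that can share their reads. Of 76 mitochondrial ribosomal proteins 8 were higher and 60 lower, and of 36 aminoacyl-tRNA synthetases 2 were higher and 31 lower, against 23 and 42 and 7 and 28 with median-of-ratios scaling. Vars, which charges valine tRNA, fell from 85.5 to 17.1 FPKM.

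Chaperones and amino acid supply fell too. Of 29 cytosolic and mitochondrial chaperone genes 5 were higher and 22 lower, with Hspd1, the mitochondrial chaperonin HSP60, from 393, 385 and 406 FPKM in Mock to 34.6, 36.4 and 33.5 in I. Of 33 genes of the endoplasmic reticulum and unfolded protein response 3 were higher and 28 lower, against 9 and 20 with median-of-ratios scaling. Hyou1 and Hsp90b1, chaperones of that compartment, fell from 78.2 to 24.0 and from 240 to 85.5 FPKM, and P4hb, protein disulfide isomerase, rose from 464 to 1660. Of 30 ATF4 and amino acid stress genes 7 were higher and 23 lower. Shmt2, the mitochondrial serine hydroxymethyltransferase, had 206, 209 and 214 FPKM in Mock and 25.3, 24.5 and 24.7 in I. Atf3, a stress-induced repressor, rose from 59.8 ± 0.92 (SD, n = 3) to 426 ± 6.01, and the stress gene Nupr1 from 18.5 ± 0.42 to 102 ± 2.84.

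Redox genes went both ways. Of 27 NADPH oxidase and antioxidant genes 13 were higher and 13 lower (48.1% each), beside 28.2% higher and 58.6% lower over all tested genes. With median-of-ratios scaling 16 were higher and 9 lower. Prdx5, a peroxiredoxin, rose from 48.8 ± 3.04 (SD, n = 3) to 570 ± 16.2 FPKM and Txnip, the inhibitor of thioredoxin, fell from 213 ± 3.51 to 44.2 ± 1.60. In iron handling 10 of 27 were higher and 14 lower, and 13 and 13 with median-of-ratios scaling. Lcn2, lipocalin 2, which withholds bacterial siderophores, had 0.78, 0.94 and 0.57 FPKM in Mock and 292, 285 and 285 in I. Fth1, ferritin heavy chain, had 1085, 1089 and 1086 in Mock and 4592, 4531 and 4480 in I. Both lay far above Mock in all I libraries. Of 51 lysosomal genes 30 were higher and 16 lower, with the protease gene Lgmn from 134 to 365 FPKM, and of 29 autophagy genes 16 were higher and 11 lower. NRF2 targets and glutathione genes held 9 higher (33.3%) and 15 lower (55.6%) of 27. The constitutive proteasome held 11 higher (30.6%) and 22 lower (61.1%) of 36 as deposited, and 21 and 13 with median-of-ratios scaling. As deposited, both lists lay near the shares of all tested genes.

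Macrophage marker genes moved both ways, and all of them stayed measurable in I. Lyz2, lysozyme, the most abundant of the 12 macrophage markers in Mock, had 3157, 3196 and 3111 FPKM there and 702, 657 and 666 in I. Csf1r, the receptor for macrophage colony-stimulating factor, had 346, 343 and 339 in Mock and 96.7, 97.1 and 94.5 in I. Both fell without overlap, by 2.22 ± 0.032 and 1.82 ± 0.023 (SE) on the log2 scale. Adgre1, the surface antigen F4/80, rose from 21.1, 22.6 and 21.5 to 34.7, 34.6 and 36.0 FPKM, under its M1 mean of 103, and Itgam, CD11b, rose from 14.9 to 36.2. Over the 12 markers 5 were higher and 7 lower, all of them above 3 FPKM in I. The identity and lineage list held 10 higher and 14 lower of 24, and 12 and 10 with median-of-ratios scaling.

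Surface receptors for uptake and adhesion moved in both directions. Of 31 scavenger and phagocytic receptors 17 were higher and 13 lower. Itga4, the alpha 4 integrin, had 220, 213 and 213 FPKM in Mock and 17.8, 19.3 and 19.8 in I, and Trem2, a lipid-sensing receptor, had 19.2, 19.6 and 20.4 in Mock and 0.49, 0.47 and 0.47 in I. Itgb2, the beta 2 integrin, rose from 62.0 ± 1.78 (SD, n = 3) to 217 ± 1.8 FPKM and Clec4e, the receptor Mincle, from 38.9 ± 1.04 to 135 ± 2.10. The 12 tested markers of alternative activation held 4 higher and 6 lower as deposited, and 5 and 5 with median-of-ratios scaling. Among secreted proteins, Spp1, osteopontin, the most abundant transcript in I, rose from 5801, 6122 and 5921 FPKM to 17403, 16999 and 16689. Mmp9, a gelatinase, fell from 19.0 to 1.73 FPKM. Serpins and extracellular proteases together held 11 higher and 6 lower of 18. Of 11 complement genes 6 were higher and 4 lower, with C3ar1, the receptor for the C3a fragment, from 20.5 ± 0.65 (SD, n = 3) to 59.0 ± 0.75 FPKM.

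Markers of other cell types were mostly missing or near 0. Summed over their lists, neutrophil markers stood at 6 to 6.06 FPKM in Mock and 1.96 to 2.56 in I, and fibroblast markers at 0.18 to 0.34 and 0.54 to 0.90. T and NK cell markers, of which only Lck was in the files, stood at 4.60 to 5.26 and 3.29 to 3.48, and erythroid and mast cell markers at 0.03 to 0.19 and 0.09 to 0.41. The B cell list stood at 101 to 103 in Mock and 13.8 to 14.6 in I, nearly all of it Ighm, with Pax5 at 0.02 and 0.04 FPKM. Nearly all of the dendritic cell list was Cd83 and nearly all of the epithelial and endothelial list in I was Pecam1, and both are genes that macrophages also express. The part of these genes in the other results was not tested.

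Osmotic stress genes did not move as a block. Of 26 tested members 9 were higher in I than in Mock (34.6%) and 14 lower (53.8%), and 12 and 12 with median-of-ratios scaling. As deposited, these shares lay near the 28.2% higher and 58.6% lower over all tested genes. The same members held 8 higher and 16 lower in M1 vs Mock. In I vs M1 they held 15 higher and 7 lower, where all tested genes had 24.9% higher and 39.3% lower. These comparisons share libraries. Slc6a12, the betaine transporter, had 107, 111 and 110 FPKM in Mock and 267, 261 and 259 in I, with 94.5 on average in M1. Akr1b3, aldose reductase, which makes sorbitol, had 61.3, 62.0 and 62.3 in Mock and 168, 165 and 159 in I, with 11.7 in M1. Both were high in all I libraries, and M1 lay below Mock. Hspa4l, a chaperone named for its induction by osmotic stress, rose from 10.9, 11.0 and 11.2 to 36.8, 38.0 and 38.3 FPKM, with 12.9 in M1. The log2 difference of Slc6a12 was 1.25 ± 0.026 (SE) with a limma adjusted p of 4.03e-12, and that of Hspa4l was 1.69 ± 0.028 with 7.91e-13.

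The same list held genes that were far lower in I than in Mock. Ranbp3l had 36.7, 36.9 and 36.5 FPKM in Mock and 12.6, 12.9 and 13.0 in I, while M1 had 0.73. Slc5a3, the myo-inositol transporter, had 39.0, 38.1 and 39.2 in Mock and 9.13, 8.93 and 9.48 in I, with 7.52 in M1. Nfat5 itself had a mean of 50.8 FPKM in Mock and 29.6 in I, with 20.7 in M1 (named after its values were seen). In each of these the I level lay between M1 and Mock and without overlap with Mock. Clca2, a regulator of chloride conductance, was close to 0 in Mock, at 0.04, 0.06 and 0.05 FPKM, and reached 9.64, 10.5 and 10.7 in I, with 0.28 in M1. Its difference was 3.42 ± 0.053 (SE) on the log2(FPKM + 1) scale, with a limma adjusted p of 4.4e-13. Of 16 tested iodide and chloride transport genes 7 were higher and 6 lower, against 11 and 3 with median-of-ratios scaling and 10 and 5 with quantile normalization. As deposited, none of those called moved 2-fold except Slc5a6, the sodium-dependent vitamin transporter, from 2.99 to 0.92 FPKM.

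Beside these, the M1 group had 3405 genes higher than Mock (30.5%) and 6166 lower (55.3%), and I had 2775 genes higher than M1 (24.9%) and 4382 lower (39.3%). Some genes stood on opposite sides of Mock in the 2 polarized groups, Slc6a12, Akr1b3 and Cxcl10 above among them. The examples that follow were selected for that difference, so their values are a description, and both comparisons share the Mock libraries. Examples higher in I and lower in M1 were Car2, carbonic anhydrase 2, with 714, 751 and 752 FPKM in Mock, 1132, 1080 and 1123 in I and 322 in M1, and Zfp36l1, an mRNA decay factor related to tristetraprolin, with 27.5, 29.0 and 29.5, then 69.5, 66.9 and 70.0, and 17.8. For Car2 quantile normalization turned the I vs Mock difference to -0.05. Examples lower in I and higher in M1 were Anxa1, the anti-inflammatory annexin A1, at 55.7 FPKM in Mock, 39.3 in I and 78.9 in M1, and Bcl2a1d, a copy of the survival gene A1 that shares reads with its relatives, at 50.8, 33.2 and 92.8.

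A further group of genes moved in M1 but was not called between I and Mock. Abca1, the cholesterol efflux pump, had 13.6, 12.4 and 12.4 FPKM in Mock and 12.6, 14.0 and 14.5 in I, against 4.64 in M1. Plaur, the urokinase receptor, had 27.8, 28.3 and 30.9 in Mock and 31.8, 29.2 and 30.4 in I, against 66.3 in M1. The libraries of I and Mock overlapped in both genes. The 95% intervals of the log2 difference, I minus Mock, were -0.04 to 0.22 for Abca1 and -0.03 to 0.17 for Plaur. Fam20c, a kinase of secreted proteins, stood at 16 in Mock, 16.6 in I and 38.7 FPKM in M1, and Ptafr, the receptor for platelet-activating factor, at 7.80, 8.18 and 16.5. These results rest on the scaling and on single libraries. With median-of-ratios scaling all 4 genes were called higher in I, by 0.40 to 0.44 on the log2 scale. Abca1 was also called without I replicate 1 (0.15) and Plaur without Mock replicate 3 (0.11).

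**Figure D4:**
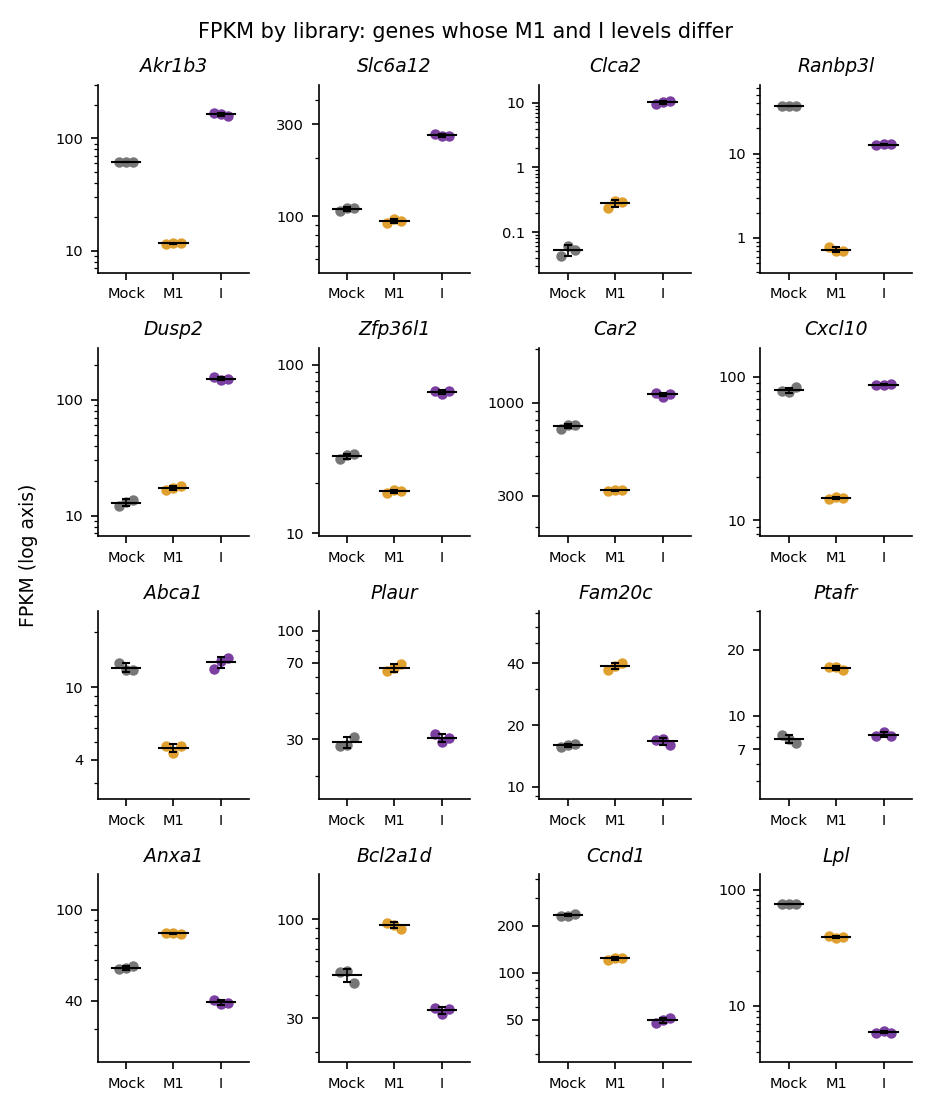
FPKM of 16 genes in every library on log axes, for Mock, M1 and I; points are libraries, lines means and error bars SDs of 3 libraries. Akr1b3, Slc6a12, Clca2 and Dusp2 are highest in I, Ranbp3l lies in I between M1 and Mock, and Abca1, Plaur, Fam20c and Ptafr overlap between I and Mock while M1 stands apart.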

How the data were processed

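Poly(A) RNA of 9 libraries was measured, of which 6 were compared (3 I, 3 Mock). The FPKM values were deposited by the authors, 1 file per library, and their unit follows from the numbers themselves. The submitters' processing notes list featureCounts 2.0.1, HISAT2 2.2.1, fastp 0.20.1 and the GRCm38 build; the options, annotation and strand setting were not given in the sources used here. FPKM times exon length (GENCODE vM21, 12204 rows matched) gave whole fragments within 0.05 in 98.4% to 98.6% of values, and 11996 rows were whole in every library; these fragments entered only a voom alternative.

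Rows with at least 0.5 FPKM in at least 3 libraries were tested (11156, leaving out 1318) with limma 3.58.1 in R 4.3.3 on log2(FPKM + 1). All 9 libraries entered the fit, with a term per group and an intensity trend, and a gene was called below 0.05 after Benjamini-Hochberg adjustment. Log2 differences understate the change of low genes, and ratios are of mean FPKM. The model was also run on simulated data in which 200 genes were set to change. It recovered 52.2% of changes of 0.25 on the log2 scale and 97.6% of changes of 1, and 4.68% of its calls were false. Far fewer genes changed there than in these data, so the run does not test the dependence on scaling. The spread among the simulated libraries was a chosen value, not one estimated from the data, so these rates describe the simulation alone. Python 3.11.15 and pandas 2.3.3 did the rest.

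The comparison, members and gene lists were chosen with earlier results of these data known. The genes named are the 10 largest rises and falls in log2 change, the 5 largest gains and losses in FPKM, up to 4 members per list with the smallest p, genes moved oppositely or only in M1, and a set of key genes; the text names part of them. The key gene Mrc1 is not analysed here, and a gene that the rule takes is not reported here. Deviations of same-numbered I and Mock libraries correlated at -0.1154, -0.02353 and 0.03264, which gave no sign of pairing by replicate number. With 3 libraries per group, this check cannot exclude pairing. Alternatives were scaling, pseudocount, filter, voom, fewer libraries, a replicate block, no trend and leaving out each library.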

Additional observations from a re-analysis of the deposited data

How the results depend on the processing

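The counts of I vs Mock calls moved most with scaling, and the counts at least 2-fold also with the pseudocount and the model: a pseudocount of 0.1 gave 1074 higher and 2878 lower by that measure, and voom on recovered fragments 1065 and 2886. With median-of-ratios scaling 4762 genes were higher in I, 1299 were at least 2-fold higher and 1221 at least 2-fold lower, and 17 lists held more members lower than higher. With quantile normalization 1202 were at least 2-fold higher and 1285 lower. Leaving out each library in turn gave 3076 to 3094 higher, 6418 to 6454 lower, 769 to 785 at least 2-fold higher and 2003 to 2028 lower, with 20 to 21 lists mostly higher and 27 to 29 mostly lower. With a replicate block 3148 genes were higher and 6515 lower (779 and 2008 by 2-fold or more), which changed the call of none of the 231 named genes. The replicate numbers were not found to pair the libraries. The voom fit had 3072 higher and 6328 lower of 10762 genes.

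Of the named genes, direction turned with median-of-ratios scaling for Eef1a1 (0.060), Trim30c (0.26), 3300005D01Rik (0.27) and Fxyd2 (0.33). It turned with upper-quartile scaling for Trim30c (0.11), 3300005D01Rik (0.12) and Fxyd2 (0.16). With quantile normalization it turned for Trim30c (0.20), 3300005D01Rik (0.092) and Car2 (-0.053), and without Mock replicate 1 for Lst1, whose values with 1 library left out ran from -0.037 to 0.096. Htatip2 with median-of-ratios scaling and Cxcl10 with quantile normalization were no longer called. All values are log2 differences, and scaling by construction moves every gene of a library together. The median standard error of 0.052 on the log2 scale limits what could be told apart. Among the 1476 genes not called, the farther bound of the 95% interval had a median of 0.21.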

Other observations

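Genes under the level filter were left out of all tests. Of these 1318 rows, 203 had every I library above every Mock library and 465 had every I library below, without a test.

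Rows that were high in expression and not part of the gene lists also moved. Pdpn, podoplanin, a glycoprotein of activated macrophages and lymphatic vessels, had 0.24, 0.51 and 0.74 FPKM in Mock and 98.7, 95.4 and 97.6 in I, with 43.5 in M1. Pbk, a kinase of mitotic cells, had 25.6, 25.2 and 25.5 in Mock and 0.08, 0.12 and 0.23 in I. Eef1a1, the elongation factor that delivers aminoacyl-tRNA, lost the most FPKM of any gene outside the lists and the mitochondrial genome, from 4547 ± 97.9 (SD, n = 3) to 3650 ± 42.6, a change that turned to 0.06 on the log2 scale with median-of-ratios scaling. Many pseudogenes resemble Eef1a1 and can share its reads.

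Genes at least 4-fold higher in I had shorter exonic sequence, with a median of 2914 bases, than genes at least 4-fold lower (4107) or all tested genes (4274). The difference was not tested.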
